A study of Mus musculus with 4 samples.

Results

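Gpnmb encodes a glycosylated transmembrane protein of melanosomes, lysosomes and the cell surface, and its DBA/2J (D) allele carries a nonsense change that its C57BL/6J (B) allele lacks. The gene was followed through all of its SNPs that separate the 2 strains in RNA of gonadal adipose tissue of F1 mice. It was chosen by its low share of D reads over exons in these same samples, so the exonic share is given as a description without a test. The members were every position listed under Gpnmb, which came to 27 of 305528 covered SNPs, with 8 in exons and 19 in introns. Of these 27 SNPs, 16 had a read in BxD females, 15 in DxB females, 24 in BxD males and 21 in DxB males.

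The 4 samples were RNA pools of BxD females, DxB females, BxD males and DxB males, named with the maternal strain first. Every mouse was an F1 heterozygote fed a chow diet, with 1 copy of chromosome 6 from each strain, so no group of either parental genotype was part of the comparison. The labels give an age of 8 weeks, whereas the study methods give an older age. Each pool joined RNA of 3 animals, or of 2 in a single pool, and each combination of cross and sex was sequenced as 1 pool. The label and the file name disagree on cross and sex for the pools called here BxD male (labelled DxB female, 2 animals) and DxB female (labelled BxD male, 3 animals). The study's mapping summary instead gives 2 animals for its DxB female pool and 3 for its BxD male pool. Its SNP read totals for these, 4598505 and 4617955, equal the exonic totals found here under those file names. File names were followed, and the B to D comparison within a pool does not depend on that choice. The pools held 4219333 to 5569347 allele-specific reads, and 45.7% to 46.9% of the reads counted over exons carried the D base.

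GPNMB is made by macrophages, osteoclasts and pigment cells, rises when lysosomes are under load and is known in fat as a product of lipid-associated macrophages. It binds integrins, CD44 and syndecan-4 and can be shed from the surface by ADAM10. DBA/2J mice are known for a premature stop codon in this gene, which together with a Tyrp1 variant underlies their pigment-dispersing iris disease and glaucoma. Cells commonly degrade messages whose stop codon lies well upstream of the last exon junction, a process called nonsense-mediated decay, while intronic reads come mostly from RNA that has not been spliced.

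In the mm9 assembly (NCBIM37) with GENCODE M1 gene models, Gpnmb lies on the plus strand of chromosome 6, from 48986517 to 49020928. The transcript used for positions ends at 49008181 and has 11 exons and 574 codons. The reference genome carried the B base at all 27 SNPs. The nonsense SNP at chr6:48995384 is in exon 4 (48995304 to 48995477) and turns the arginine codon at position 150 into a stop (R150*). It sits 93 bases before the next exon junction of the mRNA and 1123 bases before the last one, with 7 exons after it. The stop leaves 26.0% of the codons in front of it. The windows around it, chr6:48995370-48995398 on the plus strand, are shown because this is the base that defines the D allele, with the codon in capitals:
B allele, nonsense SNP: aagatggcaccagcCGAagccagcatctc
D allele, nonsense SNP: aagatggcaccagcTGAagccagcatctc

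A second coding SNP alters the protein, D36N in exon 2 at chr6:48992801. It had the most reads of any Gpnmb SNP, and its window is chr6:48992787-48992815 with the base that differs in capitals:
B allele, D36N SNP: atgaacagtatcccGatcacatgagagag
D allele, D36N SNP: atgaacagtatcccAatcacatgagagag

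Of the other exonic SNPs, 5 are synonymous (T95T in exon 3, T127T in exon 4, I508I in exon 10, K543K and S550S in exon 11) and 1 lies in the 3' untranslated part of exon 11. The intronic SNPs are spread over introns 1, 3, 4, 6, 8, 9 and 10, and the 2 with most reads are both in intron 4 and carry the largest part of the intronic evidence. The window of the first of them, 57 bases from the nearest exon, is chr6:48995520-48995548, with the differing base in capitals:
B allele, first intron 4 SNP: attagaccttgtccTttcttattctctaa
D allele, first intron 4 SNP: attagaccttgtccGttcttattctctaa

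Over the exons, the D allele gave between 5.43% and 5.92% of the reads in each of the 4 pools. The BxD female pool had 1101 B and 66 D reads, a D share of 5.66% (95% Wilson interval 4.47% to 7.13%). The DxB female pool had 493 B and 31 D reads, or 5.92% (4.20% to 8.28%). In males the counts were 1131 B and 65 D reads in BxD, or 5.43% (4.29% to 6.87%), and 1791 B and 104 D reads in DxB, or 5.49% (4.55% to 6.61%). The 4 intervals overlapped, and the share was 5.62% ± 0.216 (SD, n = 4 pools). Summed over pools the exons gave 4516 B and 266 D reads, a share of 5.56% (4.95% to 6.25%) and 17.0 B reads for each D read. The fitted log2 D to B ratio was -3.98, and 17.7% of the 7988 genes fitted had a strain difference in either direction (1414 genes, edgeR quasi-likelihood test, Benjamini-Hochberg adjusted p below 0.05). With the pool as a block in the model that number was 2175. Intervals here and elsewhere cover counting error only. They take reads as independent, whereas both mates of a pair were counted, so they may be too narrow.

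The low D share was seen at each of the 8 exonic SNPs rather than at a few of them. Over the 4 pools it was 4.49% at D36N (1022 B and 48 D reads), 4.32% at T95T (665 and 30), 6.67% at T127T (294 and 21) and 5.33% at the nonsense SNP (373 and 21). Downstream it was 7.38% at I508I (590 and 47), 6.19% at K543K (773 and 51), 5.43% at S550S (767 and 44) and 11.1% at the untranslated SNP (32 and 4, interval 4.41% to 25.3%). No exonic SNP had a D share of 0, and the upper bound of the highest lies under the interval of the summed introns given below. At D36N, the SNP with most reads, the share by pool was 5.84% in BxD females, 1.09% in DxB females, 1.81% in BxD males and 6.08% in DxB males. The 3 SNPs before the nonsense SNP together gave 4.76% (99 of 2080 reads, interval 3.93% to 5.76%) and the 4 after it 6.33% (146 of 2308 reads, 5.40% to 7.39%). The share was higher after the nonsense SNP in DxB females, BxD males and DxB males and lower in BxD females, and this split was looked at after its values were seen and not tested.

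**Figure D1:**
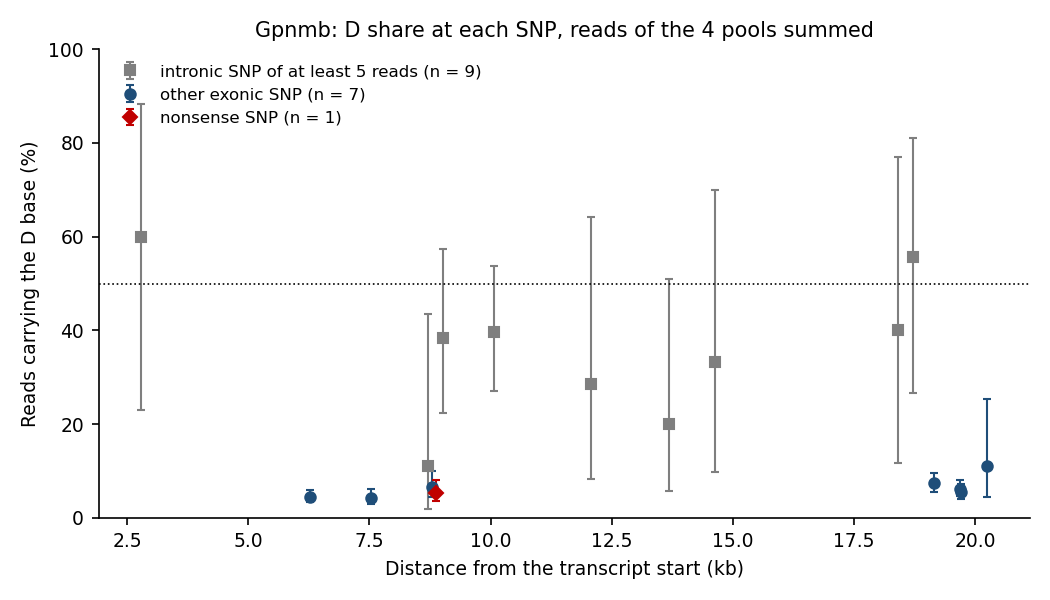
Share of reads that carry the D base (percent, vertical) at single Gpnmb SNPs against distance from the transcript start (kb, horizontal), with the 4 pools summed and 95% Wilson intervals as bars. All 8 exonic SNPs, the nonsense SNP among them, lie at 4.32% to 11.1%, while the 9 drawn intronic SNPs (those of at least 5 reads) spread from 11.1% to 60% with wide bars, and the dotted line marks equal alleles.

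The question put to the nonsense SNP was whether reads that cover the premature stop codon hold a different D share from reads elsewhere in the exons. No pool passed the test of that difference. Reads over the stop codon numbered 84 B and 7 D in BxD females (7.69%, interval 3.78% to 15.0%) and 36 B and 2 D in DxB females (5.26%, 1.46% to 17.3%). In males there were 98 B and 6 D reads in BxD (5.77%, 2.67% to 12.0%) and 155 B and 6 D reads in DxB (3.73%, 1.72% to 7.89%). The other 7 exonic SNPs gave 5.48%, 5.97%, 5.40% and 5.65% in the same order. The nonsense SNP differed from these by 2.21, -0.70, 0.37 and -1.92 percentage points in that order. With 2 to 7 D reads a pool and the identity of a pair of pools disputed, no pattern by cross or sex is read from the signs. Fisher's exact test, two-sided and adjusted over the 4 pools, gave p between 0.737 and 1. It compares the reads of each library and not animals. The gene was chosen for a low exonic share, which bears on both sides of the comparison. All exonic SNPs lie on the same message in the transcript used. A change in the number of whole D messages would therefore move both sides alike, and the test cannot show it. With 38 to 161 reads a pool, a difference inside the printed intervals was not detectable at this depth. All pools together differed by -0.253 points, and without the DxB male pool by 0.899 points.

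The introns answered otherwise, with a D share several times that of the exons in every pool. Intronic reads were few, 24 B and 13 D in BxD females (35.1%, interval 21.8% to 51.2%) and 10 B and 5 D in DxB females (33.3%, 15.2% to 58.3%). Males had 31 B and 18 D reads in BxD (36.7%, 24.7% to 50.7%) and 25 B and 14 D reads in DxB (35.9%, 22.7% to 51.6%). The intronic share was 35.3% ± 1.45 (SD, n = 4 pools), and in no pool did its interval overlap that of the exons. The exonic minus the intronic share was -29.5, -27.4, -31.3 and -30.4 percentage points in the same order of pools. The exonic side of this difference entered the choice of the gene, so it is given as a description with no p.

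The intronic reads were spread thinly. Only 2 SNPs, both in intron 4, had at least 20 reads, and together they gave 45 B and 29 D (39.2%, interval 28.9% to 50.6%). The 17 remaining intronic SNPs together gave 45 B and 21 D reads, a share of 31.8% (21.8% to 43.8%). Without the 2 intron 4 SNPs, a choice made after seeing the data, the difference over the 4 pools was -26.3 points, and with those 2 SNPs alone it was -33.6 points. Intronic SNPs before the nonsense SNP had 17 B and 7 D reads (29.2%, 14.9% to 49.2%), and those after it 73 B and 43 D (37.1%, 28.8% to 46.1%). These intervals overlapped, so no step at the nonsense SNP was detectable in the introns.

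The introns of Gpnmb themselves held fewer D than B reads. Their 50 D reads of 140 are a share of 35.7% with an interval of 28.3% to 43.9%. The summed intronic reads of all genes were 46.7%, 46.1%, 46.8% and 46.6% D in the 4 pools, which lies above that interval, although within the interval of each single pool. Whether the alignment favoured B reads at these positions was not tested.

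**Figure D2:**
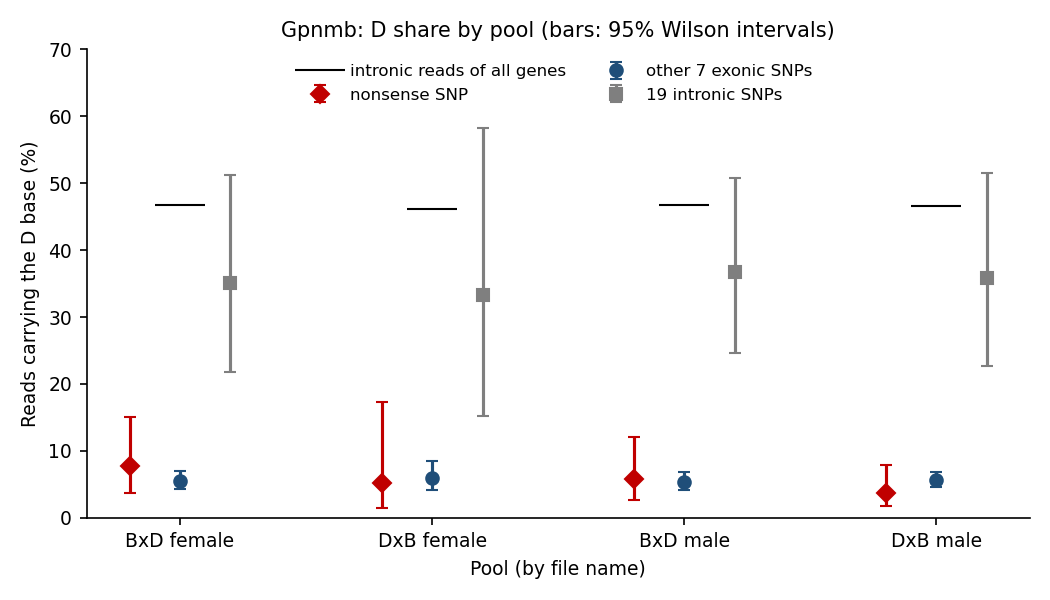
D share of Gpnmb reads (percent) in each pool at the nonsense SNP, the other 7 exonic SNPs and the 19 intronic SNPs, with 95% Wilson intervals, and the intronic share of all genes as a dash. Exonic points lie at 3.73% to 7.69% and intronic points at 33.3% to 36.7% in the 4 pools, with no overlap of the intervals of the other exonic SNPs and the introns.

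An exonic D share far under the intronic one was found in other genes too, so the size of the gap was not particular to Gpnmb. Among 2758 genes with at least 100 exonic and 100 intronic reads, the median D share was 48.0% in exons and 47.7% in introns. The gap of Gpnmb, -30.2 percentage points, was the 77th lowest, and the 5th percentile was -21.9 points. Of those genes, 52 had under 10% D reads over exons, and 43 of the 52 had over 30% over introns. Gpnmb differed in how its SNPs were made up. Counting only exonic SNPs of at least 20 reads, 30 of the 52 genes had 3 or more of them, and in 28 of the 30 at least 1 SNP had under 1% D reads. Gpnmb and Pttg1, the securin gene, were the 2 genes in which all SNPs lay between 1% and 30%. This count was made after the Gpnmb values had been seen.

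The 5 genes closest to Gpnmb in their 4 exonic D shares, out of 2447 with at least 500 reads and 3 counted SNPs, were BC003331, Arl4a, Pttg1, Phf5a and Cbr1. BC003331 was nearest, with 5.74%, 6.04%, 5.40% and 7.22% in the order used above, a Euclidean distance of 1.74 points from Gpnmb. The others lay 2.55 to 3.75 points away. Among counted SNPs of at least 20 reads, 14 of 18 were under 1% D in BC003331, 8 of 9 in Arl4a, 11 of 12 in Phf5a and 5 of 7 in Cbr1, against 0 of 10 in Pttg1 and 0 of 8 in Gpnmb. Intronic reads were 54.9% D in BC003331, 45.2% in Phf5a and 43.4% in Cbr1 but 1.77% in Pttg1, and Arl4a had none.

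SNPs annotated as nonsense changes in other genes gave a wide range of D shares. The files annotate 72 SNPs as gaining a stop, and 36 of them, in 32 genes, had at least 20 reads over the 4 pools. Of the 35 in genes other than Gpnmb, 18 had under 10% D reads, 2 had 10% to 30% and 15 had 30% to 70%. The 14 at 0 D reads were SNPs in Sub1, Ppig (0 of 379), Rac1 (0 of 364), both SNPs of Ccdc55 (0 of 269 and 0 of 360), Phf5a, Sipa1l2, Thap1, Znhit3, Asxl1, Abcf2, Ttc14, U2af2 and Mapk11. Gpnmb ranked 19th from the lowest of the 36, and it was the only one with a share between 1% and 20%. RNA counts alone cannot show whether the D strain carries the listed base at SNPs without D reads. The study sequenced DNA of D mice at a subset of its SNPs with only B reads, and none of these was verified. The Sub1 SNP was among them and gave the B base, so that SNP has no nonsense allele to count. The other nonsense SNPs named here without D reads were not in that subset.

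Of 25 nonsense SNPs of other genes with at least 20 reads also at other exonic SNPs, 14 had a D share within 10 percentage points of those SNPs. Others differed from the rest of their gene. Abcf2, an ABC-family translation factor, had 0 of 103 D reads at its nonsense SNP but 53.1% D over its other exonic SNPs. Asxl1, a Polycomb-associated chromatin protein, had 0 of 121 and 49.7%. Znhit3 had 0 of 128 against 22.6%, and Ppig 0 of 379 and 1 of 472 at its pair of SNPs with 10.4% and 10.5% elsewhere. Phf5a had 0 of 218 with 6.16% elsewhere, within 10 points. In Rac1, Ccdc55, Sipa1l2, Thap1, Ttc14 and Gtf2a1 both the nonsense and the other exonic SNPs were under 1% D. Sub1 and Mapk11 had no reads at other exonic SNPs, and U2af2 had only 7 other exonic reads. In Gpnmb the values were 5.33% and 5.58%, so both sides were low and neither was near 0.

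Other genes carried the nonsense base in as many reads as the B base. Abca3, a lipid transporter, had 724 D of 1310 reads (55.3%) at the nonsense SNP and 53.2% over its other exonic SNPs. Rpp21 had 55.6% and 58.7%, Cd33 45.4% and 47.7%, Iqcc 56.2% and 51.1%, and Peli3 60% and 49.4%. Further nonsense SNPs with 30% to 70% D reads were in 9130008F23Rik (33.3% and 62.1% at 2 SNPs), 2310035K24Rik (34.2%), AL845463.7-1 (40%), 4933436C20Rik (44.8%), AL611927.21 (51.0%) and D330050I16Rik (53.2%). Wdr66 (54.7%) and Dmpk (56.7%) had such shares at SNPs that the files place in introns. Itpripl2 was lower at 22.5% with 38.8% elsewhere. Also placed in introns were the SNP of AL627204.7-1, with 21.95%, and a pair of SNPs of AL671984.12, with 0.0225% and 0.518%. AL671984.12 lies on chromosome X, so male pools hold only the mother's copy and give no allele ratio. The highest D share in any pool was 0.0749% and 2.38% at these SNPs. Whether the D strain carries their listed bases was not tested. The SNP of Ran lists the same base for both strains and its 50% cannot tell the alleles apart.

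**Figure D3:**
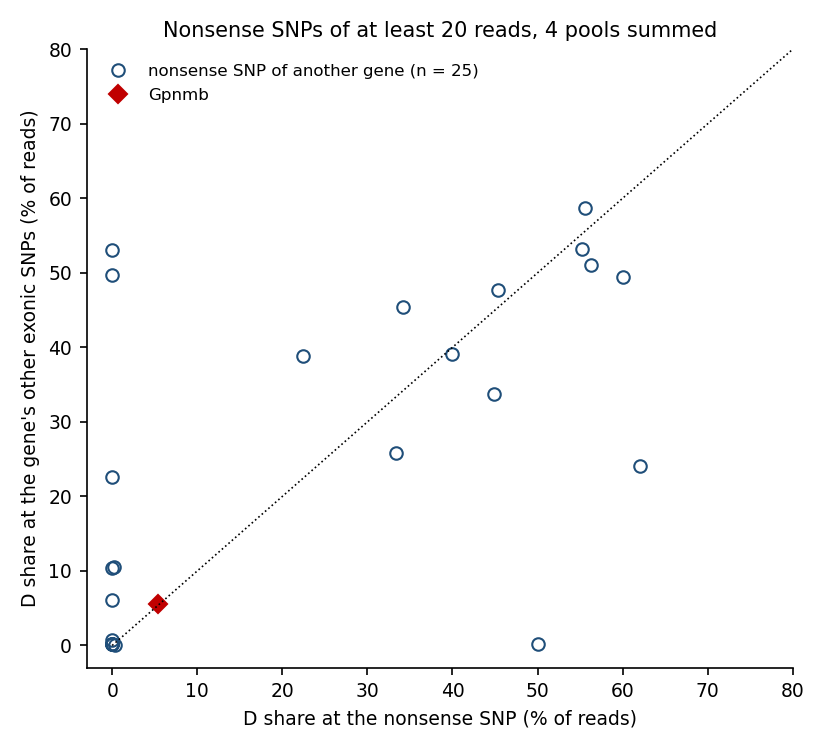
D share at the nonsense SNP (percent, horizontal) against D share at the other exonic SNPs of the same gene (percent, vertical), for the 26 nonsense SNPs in exons with at least 20 reads on both axes, pools summed, the Ran SNP included. Gpnmb lies on the dotted line of equal shares near 5%, and most of the other low genes line up at 0 on the horizontal axis.

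The genes next to Gpnmb did not share its low D share. Of 25 genes with counted SNPs within 1 Mb, 4 had a strain difference (edgeR, 17.7% of all genes did), 2 in each direction. The nearest, 2410003K15Rik, 17.3 kb downstream, had 249 B and 273 D reads (52.3%, interval 48.0% to 56.6%), and Gimap3, 272 kb upstream, had 18 B and 22 D. Towards B were Zfp777, at -999 kb, with 123 B and 2 D reads at 1 SNP, and Repin1, a zinc finger protein, with 33.5% D (log2 -0.87, SE 0.21, adjusted p 0.0128). Whether the D strain carries the listed base at the Zfp777 SNP was not tested. Towards D were Rarres2, the adipokine chemerin, with 3983 B and 8796 D reads (68.8%, log2 1.26, SE 0.21, adjusted p 0.00119) and Gimap1, a lymphocyte GTPase, with 65.7% (log2 1.04, SE 0.24, adjusted p 0.00966). The 19 neighbours of at least 100 reads ran from 1.60% to 68.8% with a median of 48.2%.

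Neighbours without a strain call included Atp6v0e2, a proton pump subunit, at 45.5%, Lrrc61 at 53.2%, Zfp467 at 50.3%, Zfp775 at 45.0%, Zfp746 at 51.8%, Krba1 at 44.5% and Sspo at 48.2%. Gimap8 was at 54.6%, Gimap4 at 41.2%, Gimap6 at 46.1%, AI854703 at 37.3%, Tra2a, a splicing factor, at 43.5%, AC158667.8 at 53.9% and Ccdc126 at 57.6%. Under 100 reads were Gimap5, Gimap7, EG330305, D330028D13Rik and Stk31.

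**Figure D4:**
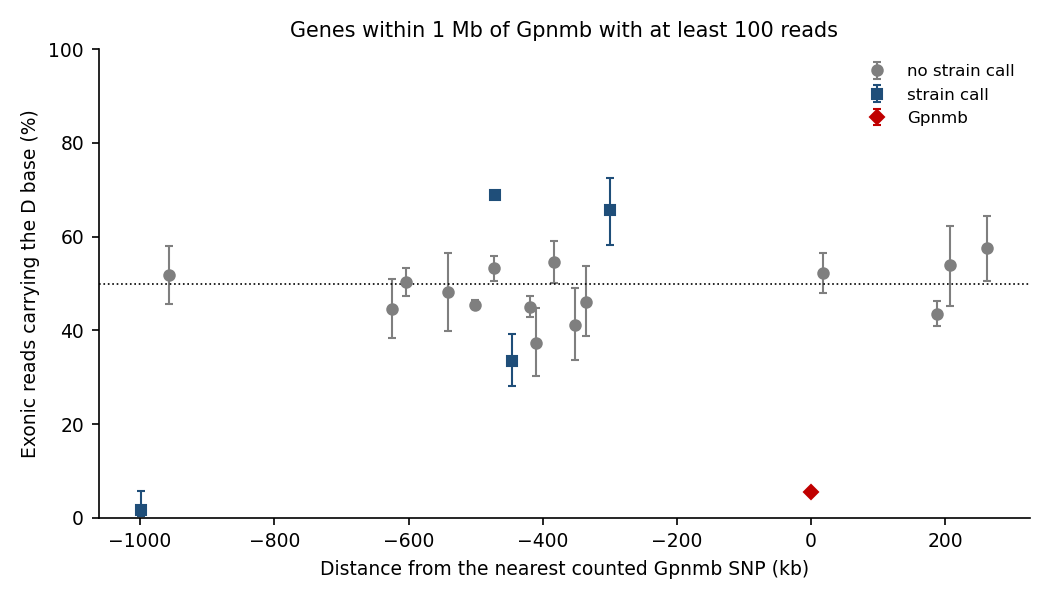
Exonic D share (percent) of genes within 1 Mb of Gpnmb that had at least 100 reads, against distance from the nearest counted Gpnmb SNP (kb, negative towards the chromosome start), with 95% Wilson intervals and strain calls in squares. Gpnmb at 5.56% is far below its neighbours on either side, whose nearest member is at 52.3%, and the Zfp777 point at 1.60% is at -999 kb.

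No difference in the Gpnmb allele ratio by parent of origin or by sex, neither of which was used to choose the gene, passed the test. For parent of origin, with the strain of the allele as a covariate, the log2 ratio of maternal to paternal Gpnmb reads was -0.06 (SE 0.46, adjusted p 0.9999, edgeR). With the pool as a block it was 0.01 (SE 0.06), and without the DxB male pool it was 0.22. Over all genes 7 were called for parent of origin, or 0.0876%. For strain by sex, the log2 D to B ratio of males minus that of females was -0.09 (SE 0.58, adjusted p 0.9999, edgeR), and -0.07 (SE 0.10) with the pool as a block. The strain by sex test called 0 of 7988 genes, 0%, with edgeR and also with DESeq2, and 100 genes had an unadjusted p under 0.05 in edgeR.

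The level of Gpnmb differed between pools while the D share stayed within 5.43% to 5.92%. The level is the CPM of B plus D reads, scaled by TMM to make pools comparable, and it is not divided by length and so compares pools within a gene. It was 130 in DxB females, 254 in BxD females, 292 in BxD males and 586 in DxB males, so the highest was 4.49 times the lowest. The B allele stood at 123, 240, 277 and 554 and the D allele at 7.72, 14.4, 15.9 and 32.2 in that order. Both males were above both females, with a log2 difference of 1.19 (SE 0.31), which did not pass the threshold (edgeR, adjusted p 0.0563, 2.88% of all genes called). Its call turned on single pools. It was not called without the DxB male pool (log2 0.60, adjusted p 0.896) nor with the label identity of the 2 disputed pools (log2 0.39, adjusted p 0.952), and was called without the BxD female (adjusted p 2.77e-07), BxD male (0.0438) or DxB female pool (4.58e-04). In each of these left-out fits 1 sex was a single pool, assumed to vary like the other.

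**Figure D5:**
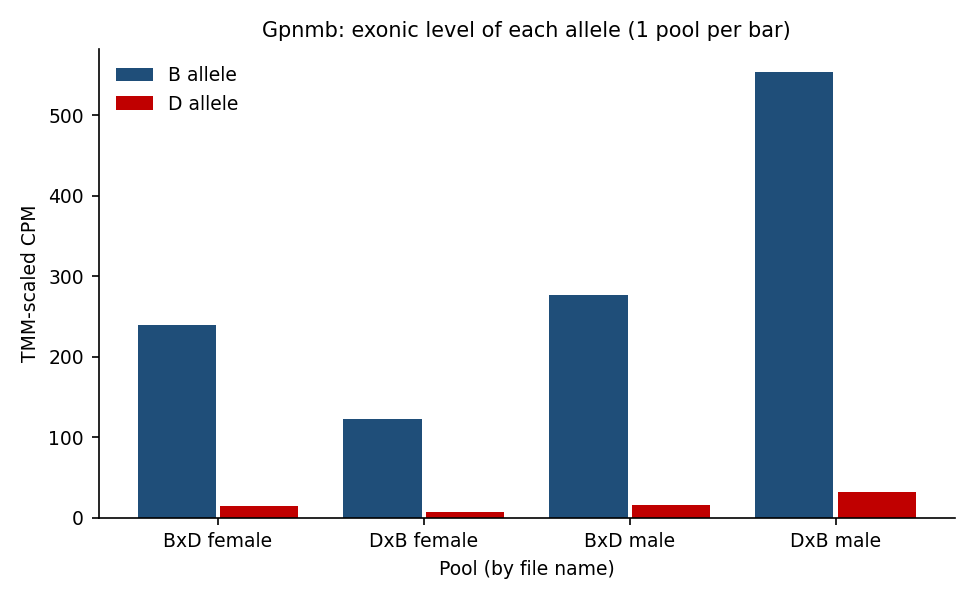
Level of the B and D alleles of Gpnmb (TMM-scaled CPM, exonic SNPs) in each of the 4 pools, 1 pool per pair of bars and hence no error bars. The B allele runs from 123 to 554 and the D allele from 7.72 to 32.2, both lowest in the DxB female pool and highest in the DxB male pool.

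In whole tissue, fewer cells of a type and less RNA per cell cannot be told apart, so marker levels are set beside the Gpnmb level. Of 13 macrophage markers 7 had counted SNPs, and 6 of the 7 were lowest in the DxB female pool, as 27.7% of 5113 genes of at least 100 reads were. Their summed level was 3312 in DxB females, 5183 in BxD females, 4140 in BxD males and 4545 in DxB males. The level of Cd68, a lysosomal protein of macrophages, was 239 in DxB females, 396 in BxD females, 444 in BxD males and 511 in DxB males, the same order as Gpnmb. The complement genes C1qa, C1qb and C1qc and the receptors Cd14 and Fcer1g were highest in BxD females instead, as was the scavenger receptor Cd163. Both measured adipocyte markers, Cidec and Lep, were highest in the DxB female pool, with a summed level of 9434 against 4420 to 6677 elsewhere. No melanocyte marker of 5 had a counted SNP, so that cell type was not measured. The stroma marker Pdgfra and the mesothelium marker Wt1 were highest in BxD females (levels of 714 and 76.6), Pecam1 of endothelium lay between 37.3 and 51.6, and the lymphocyte marker Cd3e had 2 reads in all. The part of cell composition in the Gpnmb level was not tested.

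Among the listed partner, lysosome and decay genes, the Gpnmb order of pools was shared by a few. Taken over all genes of at least 100 reads, 4.67% had the full Gpnmb order. Of 3 measured genes among 6 partners and the sheddase, Cd44, the hyaluronan receptor (levels 205, 220, 339 and 416, in the Gpnmb order of pools), and Itgb1, the integrin beta 1 chain (73.2, 94.5, 99.0 and 135), had it. Itgav, the integrin alpha V chain, had 141, 152, 148 and 156. Among 9 measured lysosome and lipid-associated macrophage genes of at least 100 reads, Lgals3, galectin-3, was the 1 gene with the order (325, 368, 466 and 644). In the same group Ctsl, Grn, Tyrobp and Plin2 were highest in the DxB male pool, Lpl, Cd63 and Lamp2 in the DxB female pool and Apoe in the BxD male pool. The nonsense-mediated decay genes Upf1, Smg1, Smg6, Smg8, Eif4a3, Casc3 and Magohb did not have it, and Upf1, the helicase of the pathway, ran from 109 to 133.

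Strain calls in the gene lists were counted list by list (edgeR, 17.7% of all genes called, median log2 D to B ratio -0.02). Of the partners, 1 of 3 measured genes was called, Itgav towards B (log2 -0.45, SE 0.10, adjusted p 0.00863), and the list had a median of -0.17. Of 4 MiT/TFE factors, the transcription factors that drive Gpnmb, Tfe3 and Tfeb were measured. Tfe3 was called with 134 B and 1 D reads (0.741% D, interval 0.131% to 4.08%). It lies on chromosome X, of which males carry only the mother's copy, so male pools give no allele ratio for it. Its level in DxB males, whose mothers were D, was 8.97, although all pools together held 1 D read. The Tfe3 call is therefore not read as a strain difference. Tfeb had 1 read, and the median of the pair was -2.38. Of 15 decay factors 9 were measured with a median of -0.08, and Smg8, a regulator of the SMG1 kinase, was called towards B (log2 -1.18, SE 0.31, adjusted p 0.0195). None of 7 pigment genes was measured.

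The lysosome and lipid-associated macrophage list had 12 of 29 genes measured and a median of -0.03, with 3 called towards B and 2 towards D. Towards B were Cd63, a lysosomal tetraspanin (143 B and 1 D reads), and Fabp5, a fatty acid binding protein (95 B and 0 D reads, which allows up to 3.16% D). The introns of Fabp5 had 2029 B and 1260 D reads (38.3% D). Lamp2, a lysosomal membrane protein, was also called towards B (11.9% D, log2 -2.75, SE 0.21, edgeR adjusted p 1.99e-06). Lamp2 lies on chromosome X, so male pools hold only the mother's copy and give no allele ratio. The strain test did not take that into account. DxB males, whose mothers were D, had a Lamp2 level of 75.2 against 88.3 in BxD males. All pools together held only 189 D reads of 1593. The Lamp2 call is therefore not read as a strain difference. Towards D were Ctsl, cathepsin L (63.2% D, log2 0.91, SE 0.15, adjusted p 9.28e-04), and Plin2, the lipid droplet coat perilipin 2 (59.5% D, log2 0.69, SE 0.15, adjusted p 0.00649). Of the macrophage markers 1 of 7 was called, Fcer1g towards B (log2 -0.95, SE 0.18, adjusted p 0.00319), with a list median of -0.15. Neither adipocyte marker was called (median 0.15), nor were Wt1, Pdgfra and Cd3e. Pecam1 was called towards B with 685 B and 19 D reads (2.70%), although its introns had 192 B and 213 D (52.6%). In the study, none of a sequenced subset of SNPs with only B reads was verified in DNA of D mice. Whether the D strain carries the listed bases of Tfe3, Cd63, Fabp5, Lamp2 and Pecam1 was not tested.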

How the data were processed

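RNA of gonadal adipose tissue was sequenced in 4 F1 pools. The deposited values are raw counts, 1 for the B and 1 for the D base of every covered SNP. The authors mapped mates as single 50 bp reads to mm9, with mrsFAST and then TopHat, kept unique reads and counted B and D bases at known variants. Whether D variants were masked in the reference is not described uniformly in the study, so a preference for B reads is possible. The submitters' processing notes also name CASAVA.

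SNPs repeated under a second gene (15441 lines) were kept under the first. Exonic SNPs were those with an exon in the files, and after the first only SNPs over 18 bp from the last kept one were counted. This reading of the filter was picked out of 16 because its gene counts best equalled the study's gene table, as did the file names of the 2 disputed pools. Reads were then summed per gene.

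Tests used edgeR 4.0.16 (TMM, quasi-likelihood, Benjamini-Hochberg over 7988 genes, threshold 0.05) on 8 allele libraries, or on the 4 pools for level, and Fisher's exact test within pools for the nonsense SNP. The test planned for exons against introns is not printed, since the gene was chosen by its exonic share. DESeq2 1.42.0 was an alternative. Standard errors are the absolute log2 ratio over the square root of F. The alleles of a pool come from the same animals, and their deviations correlated across genes (r 0.114 to 0.669, mean 0.397). A pool is 1 library of several animals, so edgeR p-values measure the spread between these pools. Those of Fisher's exact test measure only counting error within a library. The tests were tested on simulated data. Software was R 4.3.3 and Python 3.11.15, with scipy 1.17.1, matplotlib 3.10.9, numpy 2.4.6 and pandas 2.3.3. A count of 0 is read as allowing 3 counts, and shares have 95% Wilson intervals.

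The BxD pools held 5569347 reads in females and 5303083 in males, of which 4254813 and 4157360 were counted. For DxB these were 5246924 and 4219333, with 4112206 and 3353668 counted.

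Named genes were Gpnmb, genes with a nonsense SNP of at least 20 reads, genes within 1 Mb, list members with a strain call or, for level, at least 100 reads, and the 5 genes most alike. List symbols were matched by older names on the same chromosome. Gpnmb, the lists and the tests were chosen with earlier results of these data known. Sequences are from NCBIM37 and GENCODE M1.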

Additional observations from a re-analysis of the deposited data

Results flagged for a closer look

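Of 46 sets of 4 pool values examined (Gpnmb D shares, its level and the levels of listed genes), 1 had a pool far from the rest. The level of Pdgfra, a stroma marker, was 714 TMM-scaled CPM in the BxD female pool against 349 to 379 in the others. Chance flags about 1 in 20 such sets.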

How the results depend on the processing

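The exonic D share of Gpnmb was 6.05% once each allele was divided by its effective library size, and ran from 5.52% to 5.61% with a pool left out. The nonsense SNP differed from the other exonic SNPs by -0.995 to 0.899 points with a pool left out, the positive value being without the DxB male pool. The exonic minus intronic difference ran from -30.5 to -29.6 points with a pool left out and was -26.3 points without the 2 intronic SNPs of at least 20 reads, an alternative chosen after seeing the data. The parent-of-origin log2 ratio changed sign with the pool as a replicate block (0.0072) and ran from -0.14 to 0.22 with a pool left out. The label identity of the disputed pools gave -0.19 and leaving out the strain covariate -0.34, neither past the threshold. The strain by sex ratio ran from -0.13 to -0.06 with a pool left out. The level by sex ran from 0.60 to 1.74 with a pool left out and was called in 3 of those 4 fits. It missed the threshold under DESeq2 (adjusted p 0.802), at least 10 counts per gene (0.287) and no distance filter (0.101). Strain calls numbered 2175 with the pool as a replicate block and 1046 to 1183 with a pool left out. The cause of these shifts was not tested. Of 62 alternative values, 53 were counted as unchanged. For the exonic D share that meant a shift smaller than the SD over pools, and for strain calls a count within a set fold of the main one. For the other results it meant the same direction and side of the threshold. Intronic reads numbered 15 to 49 a pool.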
